A study of Mus musculus with 28 samples.

Results

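The genes described here are 30 genes of cholesterol synthesis, uptake and efflux, taken by symbol from the deposited table of 24197 RefSeq genes. All 30 were found, and all 30 had a mean of at least 1 FPKM over the 8 groups, as did 10477 genes of the whole table. They comprise 6 genes of the mevalonate steps, 10 of the squalene and sterol steps, 4 of SREBP regulation, 4 of transport and esterification within the cell, 3 of efflux and excretion and 3 of lipoprotein uptake and plasma handling.

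Nuclear polyadenylated RNA was sequenced from livers of outbred CD-1 mice, Crl:CD1(ICR), given vehicle or TCPOBOP, a compound that activates CAR, the nuclear receptor encoded by Nr1i3, with 28 libraries of 1 liver each. At 2 weeks after 3 mg/kg TCPOBOP in low corn oil (4 µl/g with 10% DMSO), livers were taken from 4 TCPOBOP and 3 vehicle males and from as many females, aged 9 to 10 weeks. For 8 weeks, 3 males had TCPOBOP and 3 had vehicle in high corn oil (20 µl/g with 2% DMSO). All were aged 15 to 16 weeks, and the TCPOBOP males had 3 mg/kg first and 1 mg/kg in later doses. In the low corn oil regimen, 4 males had TCPOBOP for 8 weeks and 4 males had vehicle for 4 to 8 weeks. The TCPOBOP males of this regimen had 3 mg/kg first and 1.5 mg/kg in later doses. Of these low corn oil males, 2 vehicle mice were 11 to 12 weeks old and the rest 15 to 16 weeks. CAR was intact in all groups, as far as the labels say.

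The liver makes cholesterol from acetyl-CoA through mevalonate, squalene and lanosterol. Transcription of these enzymes is driven mainly by SREBP-2, the product of Srebf2, which SCAP escorts to the Golgi when sterols are low and which INSIG proteins hold back in the endoplasmic reticulum when sterols are high. Hepatocytes take up cholesterol from lipoproteins through receptors such as SR-BI (Scarb1), pass it on to apolipoprotein A-I through ABCA1, and excrete it into bile through the paired half-transporters ABCG5 and ABCG8, whose genes are targets of the liver X receptors.

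Values are the authors' pooled FPKM per group (fragments per kilobase, scaled to library size), the authors' fold change, and the authors' edgeR p, read as an adjusted p and called under 0.05. No value per mouse was used, so no spread between mice can be given. As a check of the treatment, the CAR target Cyp2b10 rose 67.9-fold to 231-fold in the 4 TCPOBOP comparisons of the authors' deposited table, and Nr1i3 itself fell in all 4. Hepatocyte markers were abundant in every group, with Alb, which encodes albumin, between 2433 and 11130 FPKM. Under TCPOBOP, Alb was called 1.65-fold lower in 2-week males (adjusted p = 0.0294), where the summed level of 6 hepatocyte markers was 17566 with vehicle and 13769 FPKM with TCPOBOP. At 8 weeks Apoa1 was called higher under both regimens and Apoa2 under low corn oil (2.31-fold, adjusted p = 0.00063), where the summed level was 6315 with vehicle and 10636 FPKM with TCPOBOP. Not every marker of the list rose there. Cyp2e1 and Serpina1c had lower values under low corn oil, from 410 to 316 and from 238 to 226 FPKM, neither called. Alb had a higher value and Ttr a fold of 1.01, also not called. The part of these markers in the results was not tested. In bulk nuclei, fewer cells of a type and less RNA per cell cannot be told apart.

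**Figure D1:**
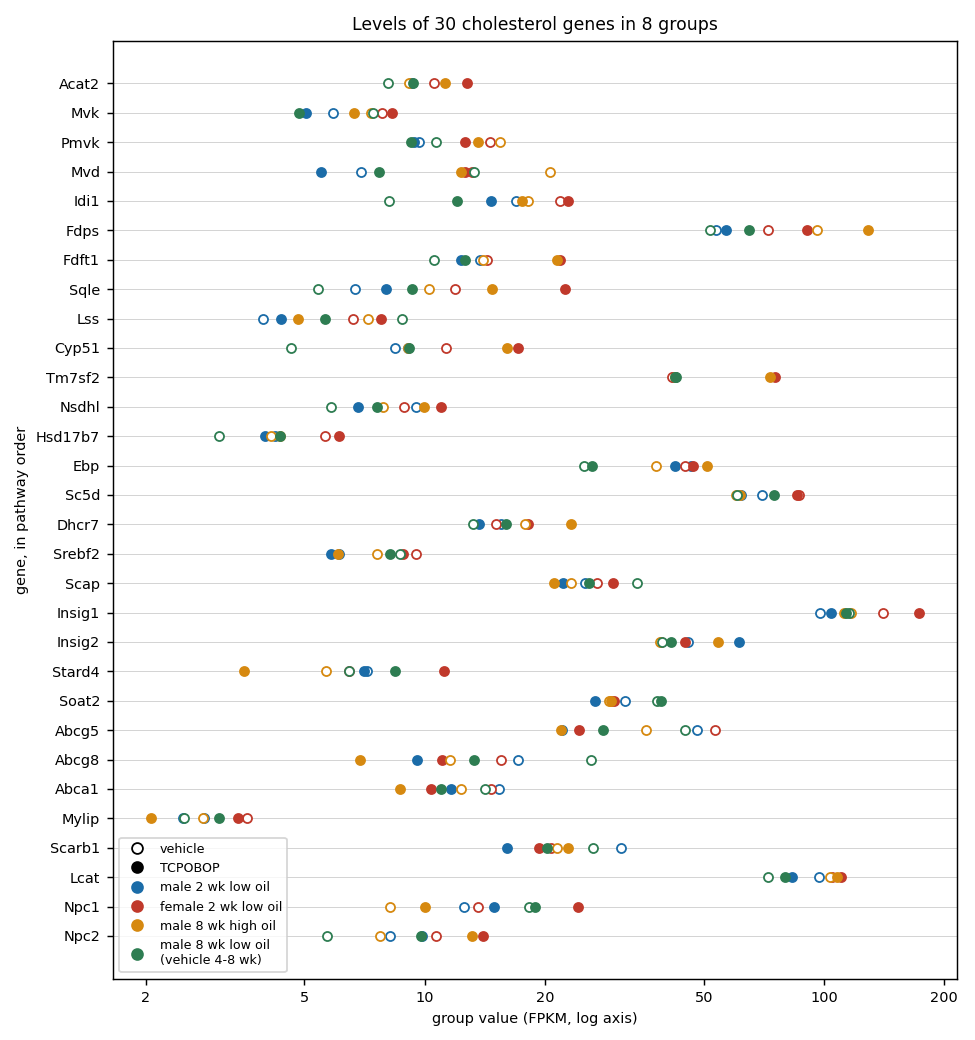
Group values of the 30 genes on a log axis in FPKM, open points for vehicle and filled points for TCPOBOP, coloured by sex, time and regimen. Each point is the authors' single value for a group, from 2.07 FPKM for Mylip to 173 FPKM for Insig1, and no error can be drawn.

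Of the 30 genes, 8 changed in at least 1 of the 4 TCPOBOP comparisons and 22 in none. The share of all genes called in at least 1 of the 4 was not computed, so shares are given per comparison. Abcg5 and Abcg8 of sterol efflux and the uptake receptor Scarb1 fell, and genes of sterol transport within the cell and of the sterol steps accounted for all rises. In 2-week males 3 genes fell (Abcg5, Abcg8 and Scarb1) and none rose. Of all genes in that comparison 1.78% were lower and 2.52% higher, or 2.83% and 4.16% of those of at least 1 FPKM, a level chosen after the table was seen. In 2-week females 2 rose (Stard4 and Npc1) and 1 fell (Abcg5), against 3.45% higher and 3.18% lower of all genes, or 6.25% and 5.04% of those of at least 1 FPKM. At 8 weeks under high corn oil 3 rose (Cyp51, Tm7sf2 and Npc2) and none fell, against 4.08% and 1.88% of all genes, or 7.24% and 3.43% of those of at least 1 FPKM. Under low corn oil 1 rose (Npc2) and 2 fell (Abcg5 and Abcg8), against 3.72% and 2.81%, or 5.35% and 5.04%.

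In 2-week females and at 8 weeks, the count of 3 among 30 genes is close to the shares over genes of at least 1 FPKM, both directions together. In 2-week males all 3 were lower, which is above the share of 2.83% lower. Whether the 30 genes as a set differ from that share was not tested. The median log2 fold change of the 30 genes was -0.18 in 2-week males, 0.11 in 2-week females, 0.08 at 8 weeks under high corn oil and -0.04 under low corn oil. The same medians over genes of at least 1 FPKM were -0.01, 0.01, -0.04 and -0.01. The 4 comparisons share no library.

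**Figure D2:**
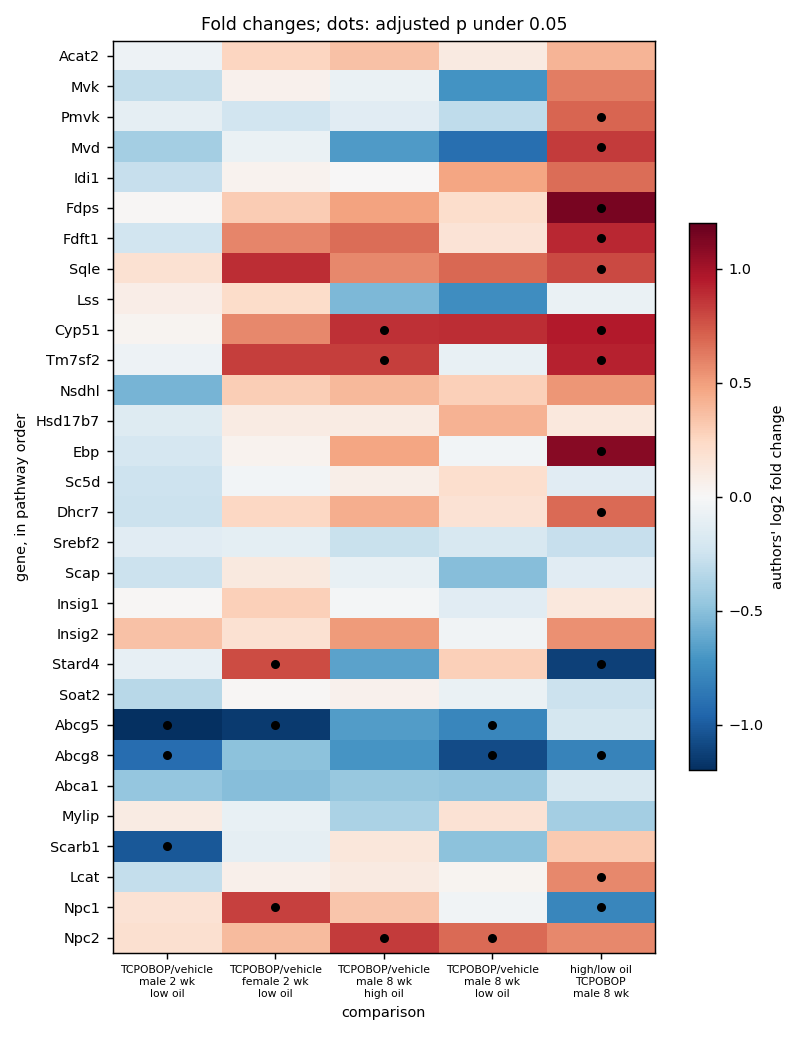
The authors' log2 fold changes of the 30 genes (rows, in pathway order) in 5 comparisons (columns), with a dot where the adjusted p is under 0.05. Abcg5, Abcg8 and Abca1 are below 0 in all 4 TCPOBOP columns, as are Pmvk, Mvd and Srebf2. In the column of high over low corn oil 9 synthesis genes carry a dot. The vehicle mice of the 8-week low corn oil column were treated for 4 to 8 weeks.

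The 3 efflux genes had lower values under TCPOBOP in each comparison, and 2 of them, Abcg5 and Abcg8, were called. Abcg5, which forms the biliary sterol exporter together with Abcg8, stood at 48.2, 53.5, 35.9 and 44.9 FPKM in the vehicle groups (2-week males, 2-week females, 8-week high corn oil and low corn oil, in that order here and below). The corresponding TCPOBOP groups stood at 22.1, 24.4, 21.9 and 28.0 FPKM. All TCPOBOP groups lay below all vehicle groups. In the authors' deposited table Abcg5 was 2.30-fold lower in 2-week males (adjusted p = 7.98e-06), 2.21-fold lower in females (adjusted p = 0.000112) and 1.72-fold lower at 8 weeks under low corn oil (adjusted p = 0.00699). The value under high corn oil, 1.59-fold lower, did not pass (adjusted p = 0.226), and its difference from the other settings was not tested.

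Abcg8 stood at 17.2, 15.5, 11.6 and 26.1 FPKM with vehicle and at 9.59, 11.0, 6.90 and 13.3 FPKM with TCPOBOP. The ranges of the groups overlapped, since the TCPOBOP group of low corn oil lay above the vehicle group of high corn oil. Abcg8 fell 1.88-fold in 2-week males (adjusted p = 0.000891) and 2.11-fold at 8 weeks under low corn oil (adjusted p = 8.79e-05) in the authors' deposited table. It was 1.41-fold lower in females (adjusted p = 0.184) and 1.63-fold lower under high corn oil (adjusted p = 0.255), neither of which passed.

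Abca1, the exporter that loads apolipoprotein A-I, stood at 15.3, 14.7, 12.3 and 14.2 FPKM with vehicle and at 11.6, 10.4, 8.70 and 11.0 FPKM with TCPOBOP. The groups did not overlap, and the fold was between 1.37 and 1.42 lower in all 4 comparisons of the authors' deposited table, yet none passed (adjusted p from 0.104 to 0.400). Abcg5 and Abca1 were the 2 of 30 genes with every TCPOBOP group below every vehicle group, a pattern held by 5.13% of genes of at least 1 FPKM. None of the 30 showed the opposite pattern, which 8.08% of those genes did.

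**Figure D3:**
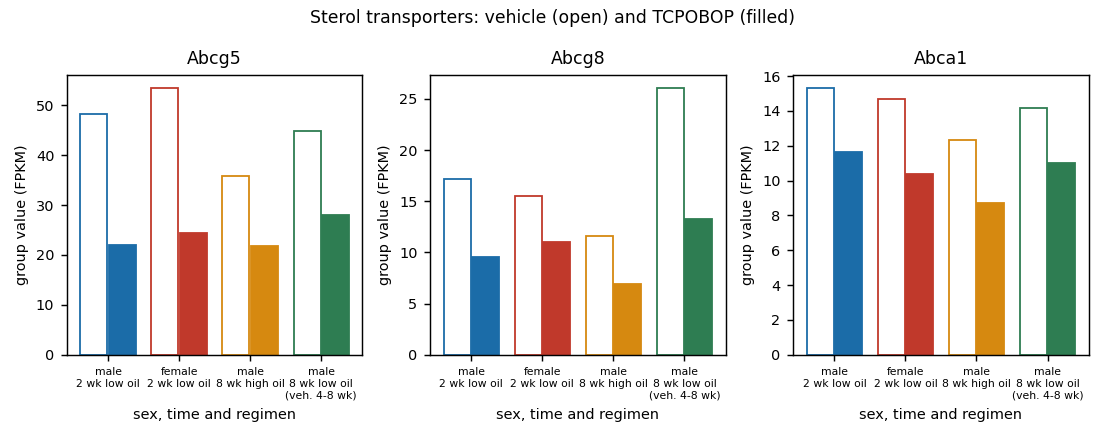
Group FPKM (linear axis from 0) of Abcg5, Abcg8 and Abca1, vehicle as open and TCPOBOP as filled bars, by sex, time and regimen. Every filled bar is lower than the open bar beside it, from 48.2 to 22.1 FPKM for Abcg5 in 2-week males. Each bar is 1 pooled value without an error.

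Abcg5 and Abcg8 lie head to head on chromosome 17, with 109 bases between the starts of their nearest RefSeq windows, so their promoters are largely the same DNA read from opposite strands. RefSeq promoter windows (GRCm38.p6, 250 bases before to 50 after the start) are shown for this pair because both genes fell, with the matches to CCAAT, the box bound by NF-Y, in capitals on either strand. Abcg5 is at chr17:84682962-84683261 on the minus strand and Abcg8 at chr17:84682871-84683170 on the plus strand, sharing 209 bases.
Abcg5: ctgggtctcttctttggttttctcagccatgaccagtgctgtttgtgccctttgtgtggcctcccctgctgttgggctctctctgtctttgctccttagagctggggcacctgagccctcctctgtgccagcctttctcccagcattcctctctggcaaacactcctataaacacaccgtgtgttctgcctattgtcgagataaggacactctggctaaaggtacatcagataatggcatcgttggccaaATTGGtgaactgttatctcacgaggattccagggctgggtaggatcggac
Abcg8: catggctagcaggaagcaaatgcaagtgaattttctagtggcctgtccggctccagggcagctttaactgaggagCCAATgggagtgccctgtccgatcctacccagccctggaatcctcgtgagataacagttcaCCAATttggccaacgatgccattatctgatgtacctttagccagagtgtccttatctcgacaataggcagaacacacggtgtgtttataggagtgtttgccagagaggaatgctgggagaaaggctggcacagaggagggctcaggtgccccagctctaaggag
The match at the start of Abcg5 and the second match of Abcg8 are the same site. No match to TCACNCCAC, a form of the sterol regulatory element bound by SREBP, and none to a direct repeat of nuclear receptor half-sites spaced by 4 bases was found in either window. In the GENCODE M21 annotation the bodies of both genes also overlap by 6710 bases on opposite strands. The libraries were stranded per the labels, but the strand setting used for counting is not known from the sources used, so reads of the overlap could count for either gene.

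Of the 4 genes of sterol movement and esterification within the cell, 3 rose in at least 1 TCPOBOP comparison. The share of all genes that rose in at least 1 of the 4 was not computed, so this count has no background. Stard4, a cytosolic sterol carrier, stood at 7.17, 6.45, 5.66 and 6.46 FPKM with vehicle and at 7.05, 11.2, 3.53 and 8.43 FPKM with TCPOBOP. It was highest in TCPOBOP females and lowest in TCPOBOP males of high corn oil. Stard4 rose 1.72-fold in females (adjusted p = 0.00203), while its 1.56-fold lower value under high corn oil did not pass (adjusted p = 0.187) in the authors' deposited table.

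Npc1 and Npc2 encode the membrane and the soluble protein that hand cholesterol out of the lysosome. Npc1 stood at 12.5, 13.6, 8.17 and 18.2 FPKM with vehicle and at 14.9, 24.2, 10.0 and 18.9 FPKM with TCPOBOP, and rose 1.77-fold in females (adjusted p = 0.00452) in the authors' deposited table. Npc2 stood at 8.21, 10.7, 7.72 and 5.68 FPKM with vehicle and at 9.84, 14.0, 13.2 and 9.78 FPKM with TCPOBOP. It was higher in all 4 comparisons and rose 1.78-fold at 8 weeks under high corn oil (adjusted p = 0.0121) and 1.60-fold under low corn oil (adjusted p = 0.0163). Its values in 2-week males and females, also higher, did not pass (adjusted p = 0.981 and 0.590). Soat2, which esterifies cholesterol in hepatocytes, lay between 26.7 and 39.1 FPKM and was never called.

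Scarb1, the receptor that takes cholesteryl esters from high density lipoprotein, stood at 31.1, 20.7, 21.4 and 26.5 FPKM with vehicle and at 16.1, 19.4, 22.8 and 20.3 FPKM with TCPOBOP. The 2-week males held both the highest and the lowest value. Scarb1 fell 2.02-fold in 2-week males (adjusted p = 9.14e-05), with values of 1.08-fold lower in females (adjusted p = 1), 1.10-fold higher under high corn oil (adjusted p = 1) and a lower level under low corn oil (adjusted p = 0.286) in the authors' deposited table. The differences between these responses were not tested. Mylip, the ubiquitin ligase that targets lipoprotein receptors for breakdown, was the least abundant of the 30 genes and lay between 2.07 and 3.60 FPKM. Lcat, which encodes the plasma enzyme that esterifies cholesterol on lipoproteins, lay between 72.5 and 110.4 FPKM, and neither gene was called under TCPOBOP.

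Of 16 cholesterol synthesis genes, none was called under TCPOBOP in 2-week males, 2-week females or 8-week males of low corn oil. Under high corn oil 2 of 16 rose, where 7.24% of genes of at least 1 FPKM were called higher. In the other 3 comparisons 4.16%, 6.25% and 5.35% of those genes were called higher and 2.83%, 5.04% and 5.04% lower. Their median log2 fold change was -0.18, 0.24, 0.37 and 0.17 in the 4 comparisons, and 4, 13, 12 and 10 of the 16 had a value above 0. Over genes of at least 1 FPKM the share above 0 was 49.3%, 51.0%, 46.6% and 48.6%.

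Cyp51, the lanosterol demethylase, stood at 8.41, 11.3, 9.08 and 4.62 FPKM with vehicle and at 9.06, 17.1, 16.1 and 9.12 FPKM with TCPOBOP. It rose 1.83-fold under high corn oil (adjusted p = 0.00704), and its 1.85-fold higher value under low corn oil did not pass (adjusted p = 0.0680) in the authors' deposited table. Tm7sf2, a sterol reductase of the next step, was nearly level in 6 of the 8 groups, between 41.7 and 42.7 FPKM. It was higher in TCPOBOP females, at 75.3 FPKM, and in TCPOBOP males of high corn oil, at 73.2 FPKM. Tm7sf2 rose 1.78-fold under high corn oil (adjusted p = 0.0129), and the value in females had the same size but did not pass (1.78-fold, adjusted p = 0.0758) in the authors' deposited table. In GENCODE M21 the body of Tm7sf2 overlaps that of Vps51 by 532 bases on the same strand, and that of Cyp51 overlaps Akap9 by 166 bases on the opposite strand.

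Sqle, which encodes squalene epoxidase, had the largest ratio of the highest to the lowest group among the 16, 4.15, from 5.40 FPKM in vehicle males of low corn oil to 22.4 FPKM in TCPOBOP females. Its folds were 1.14, 1.85, 1.49 and 1.61, all upward and none called (adjusted p from 0.147 to 1) in the authors' deposited table. Mvd, the mevalonate diphosphate decarboxylase, went the other way, with 6.92, 13.1, 20.7 and 13.3 FPKM with vehicle and 5.50, 12.6, 12.4 and 7.68 FPKM with TCPOBOP. Mvd was 1.60-fold lower under high corn oil (adjusted p = 0.0792) and 1.87-fold lower under low corn oil (adjusted p = 0.346), neither called. Lss, the lanosterol synthase, also had lower values at 8 weeks, from 7.22 to 4.81 FPKM under high and from 8.79 to 5.62 FPKM under low corn oil (adjusted p = 0.276 and 0.318). The body of Lss overlaps 4930483K19Rik, annotated on the opposite strand, by 11268 bases.

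Mvk, the mevalonate kinase, was 1.65-fold lower under low corn oil (adjusted p = 0.252), and Nsdhl, a sterol demethylation enzyme, was 1.47-fold lower in 2-week males (adjusted p = 0.248) in the authors' deposited table. Nsdhl was 1.23-fold, 1.31-fold and 1.22-fold higher in the other 3 comparisons (adjusted p from 0.633 to 0.874). None of these values passed. Hsd17b7, which acts beside Nsdhl in sterol demethylation, was the lowest synthesis gene on average at 4.47 FPKM, and Sc5d, the sterol desaturase, lay between 60.2 and 86.6 FPKM. Acat2, the thiolase of the first step, lay between 8.11 and 12.8 FPKM and Idi1 between 8.14 and 22.8 FPKM. These and Pmvk, Fdps, Fdft1, Ebp and Dhcr7 were not called in any TCPOBOP comparison.

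The regulators of the SREBP pathway were not called in any of the 5 comparisons. Srebf2 itself lay between 5.83 and 9.52 FPKM, with folds of 1.09 to 1.21 lower in the 4 TCPOBOP comparisons of the authors' deposited table. Scap had its largest difference under low corn oil, from 34.1 to 25.8 FPKM (1.43-fold lower, adjusted p = 0.240). Insig1, itself a target of SREBP-2, was the most abundant of the 30 genes with 97.8, 140.7, 117 and 115.6 FPKM with vehicle and 104.3, 173, 112 and 113 FPKM with TCPOBOP. Females held the 2 highest values of Insig1. Insig2, which in liver has a transcript lowered by insulin, stood at 45.7, 39.1, 38.8 and 39.3 FPKM with vehicle and at 61.4, 44.9, 54.2 and 41.4 FPKM with TCPOBOP (adjusted p from 0.583 to 1).

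The last comparison asked how TCPOBOP-treated males of the high and the low corn oil regimen differed at 8 weeks. Of 16 synthesis genes, 9 were called higher under high corn oil, none was called lower and 7 were not called, and of all 30 genes 10 were higher and 3 lower. Of all genes 3.6% were called higher and 3.81% lower, or 7.65% and 6.02% of those of at least 1 FPKM. The median log2 fold change was 0.69 for synthesis genes and 0.47 for the 30 genes, against 0.03 over genes of at least 1 FPKM. Its libraries are the TCPOBOP arms of the 8-week comparisons above, so it is not independent of them.

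Fdps, which makes farnesyl diphosphate, stood at 53.7, 72.5, 96.1 and 51.9 FPKM with vehicle and at 56.7, 90.8, 128.6 and 64.8 FPKM with TCPOBOP, and was higher under high corn oil (2.20-fold higher, adjusted p = 2.23e-05) in the authors' deposited table. Ebp, a sterol isomerase, stood at 46.6, 44.8, 37.9 and 25.1 FPKM with vehicle and at 42.4, 46.9, 50.9 and 26.2 FPKM with TCPOBOP (2.13-fold higher, adjusted p = 0.00013). Tm7sf2 was 1.90-fold higher (adjusted p = 0.000176), Mvd 1.79-fold (adjusted p = 0.0022) and Pmvk, the phosphomevalonate kinase, 1.62-fold (adjusted p = 0.00571). For Ebp the low corn oil males given TCPOBOP for 8 weeks and those given vehicle for 4 to 8 weeks lay below all other groups. Pmvk lay between 9.26 and 15.4 FPKM over the 8 groups. These 5 genes passed with the smallest adjusted p among the synthesis genes.

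Fdft1, the squalene synthase, was 1.87-fold higher (adjusted p = 0.00926) and Cyp51 1.93-fold (adjusted p = 0.0137) in the authors' deposited table. Fdft1 lay between 10.6 and 21.8 FPKM over the 8 groups. In GENCODE M21 the body of Fdft1 overlaps that of Ctsb by 774 bases on the opposite strand. Dhcr7, the reductase of the final step, lay between 13.2 and 23.2 FPKM and was 1.60-fold higher (adjusted p = 0.0367) and Sqle 1.73-fold (adjusted p = 0.0374). Lss and Sc5d had values below 0 on the log2 scale, -0.08 and -0.14, and were not called (adjusted p = 1 for both). Among the other genes Lcat was 1.49-fold higher under high corn oil (adjusted p = 0.0392). Stard4 was 2.18-fold lower (adjusted p = 0.000507), Abcg8 1.74-fold lower (adjusted p = 0.0051) and Npc1 1.72-fold lower (adjusted p = 0.0154).

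The vehicle groups of both regimens, compared here without a test, also differed in these genes' levels. The FPKM ratio of high over low corn oil was above 1 for 13 of 16 synthesis genes in vehicle and for 13 of 16 in TCPOBOP, with median ratios of 1.35 and 1.46. Over genes of at least 1 FPKM, 53.8% in vehicle and 38.9% in TCPOBOP had a ratio above 1, with median ratios of 1.02 and 0.921. Idi1, an isomerase of the mevalonate steps, had the largest vehicle ratio, 8.14 against 18.2 FPKM, followed by Cyp51, 4.62 against 9.08 FPKM, and Sqle, 5.40 against 10.3 FPKM. Tm7sf2 had nearly equal levels in vehicle, 42.3 and 42.5 FPKM, and a ratio of 1.71 in TCPOBOP, whereas Idi1 had ratios of 2.23 and 1.45.

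**Figure D4:**
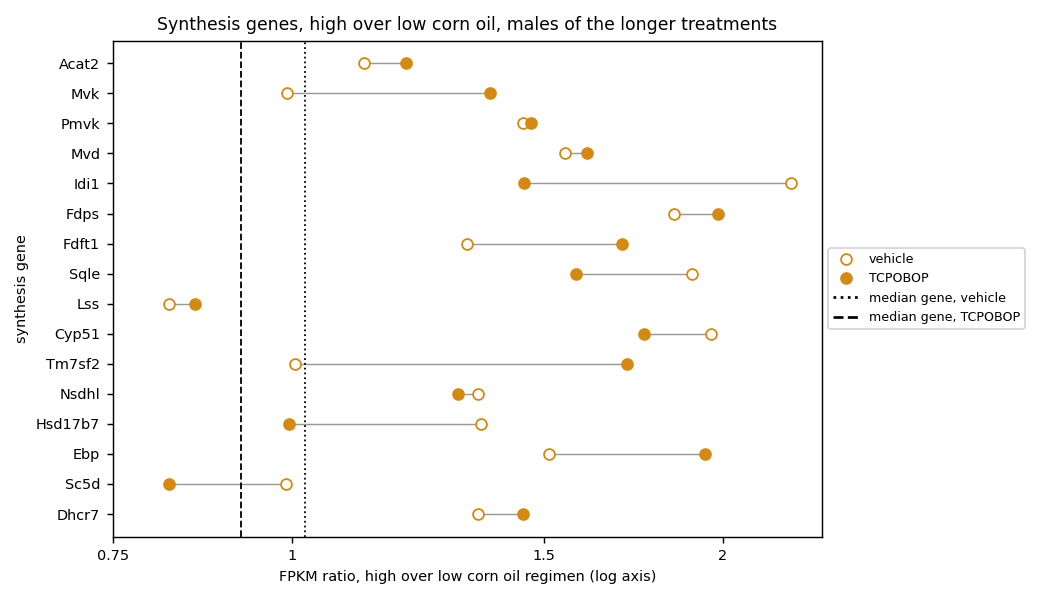
Ratio of the high to the low corn oil group in FPKM (log axis) for the 16 synthesis genes, open points for vehicle and filled points for TCPOBOP males, with lines at the median of genes of at least 1 FPKM. Most genes lie to the right of both lines in both treatments, Lss lies left of them, and Tm7sf2 is high only in TCPOBOP, at a ratio of 1.71. The low corn oil vehicle mice were treated for 4 to 8 weeks, and no ratio carries an error.

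The low corn oil vehicle group of 4 to 8 weeks had the lowest of the 8 group values for 10 of 16 synthesis genes, whereas 24% of genes of at least 1 FPKM were lowest there. The same group had the lowest summed level of the 6 hepatocyte markers, 6315 FPKM against 11395 FPKM in high corn oil vehicle, and the lowest Alb, Ttr, Apoa1 and Apoa2 of the 8 groups. TCPOBOP females had the highest value for 9 of 16, against 22.3% of those genes. The regimens also differ in oil volume, DMSO, later dose, library set and, for part of the vehicle mice, age, which cannot be told apart. Some cell markers differed with the regimen. In TCPOBOP males of high over low corn oil no marker of Kupffer cells and macrophages or of cholangiocytes was called. There 3 of 6 hepatocyte markers were higher (Apoa1, Serpina1c and Cyp2e1), with a summed level of 15620 against 10636 FPKM. In the same comparison 3 of 6 endothelial markers were lower (Kdr, Pecam1 and Oit3), with 92.9 against 152.6 FPKM. The part of these markers in the difference, in vehicle or in TCPOBOP, was not tested. Cyp2b10 was 1.81-fold higher under high corn oil (adjusted p = 0.000862) in the authors' deposited table.

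Promoter windows are shown for 4 of the synthesis genes called higher under high corn oil, again with CCAAT on either strand in capitals. Cyp51 is at chr5:4104648-4104947, Tm7sf2 at chr19:6067801-6068100, Mvd at chr8:122443373-122443672 and Ebp at chrX:8193463-8193762, all on the minus strand of GRCm38.p6.
Cyp51: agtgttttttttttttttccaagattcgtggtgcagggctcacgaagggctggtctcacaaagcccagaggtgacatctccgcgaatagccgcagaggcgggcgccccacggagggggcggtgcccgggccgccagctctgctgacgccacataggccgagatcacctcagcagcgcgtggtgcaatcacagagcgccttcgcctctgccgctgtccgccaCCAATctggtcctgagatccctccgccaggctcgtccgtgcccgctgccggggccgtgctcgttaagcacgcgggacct
Tm7sf2: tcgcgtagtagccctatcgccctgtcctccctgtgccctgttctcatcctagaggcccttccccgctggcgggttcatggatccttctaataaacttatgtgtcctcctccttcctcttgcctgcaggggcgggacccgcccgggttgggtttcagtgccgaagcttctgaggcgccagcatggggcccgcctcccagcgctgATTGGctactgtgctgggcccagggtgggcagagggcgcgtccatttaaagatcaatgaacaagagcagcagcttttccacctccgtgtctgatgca
Mvd: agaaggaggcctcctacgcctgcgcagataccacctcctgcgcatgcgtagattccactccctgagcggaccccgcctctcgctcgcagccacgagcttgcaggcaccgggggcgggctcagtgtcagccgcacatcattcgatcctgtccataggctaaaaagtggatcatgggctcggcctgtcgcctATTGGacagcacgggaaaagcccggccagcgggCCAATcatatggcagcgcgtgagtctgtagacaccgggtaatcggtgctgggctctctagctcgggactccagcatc
Ebp: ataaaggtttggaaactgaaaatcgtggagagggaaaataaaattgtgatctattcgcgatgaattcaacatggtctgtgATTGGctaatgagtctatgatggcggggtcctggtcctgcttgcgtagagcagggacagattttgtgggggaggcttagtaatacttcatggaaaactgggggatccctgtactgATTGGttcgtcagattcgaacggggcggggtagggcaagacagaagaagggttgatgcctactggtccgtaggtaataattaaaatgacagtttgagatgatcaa
A window was available for 23 of the 30 genes, and not for Fdft1, Fdps, Npc1, Scarb1, Soat2, Sqle and Stard4. CCAAT was found in a window of 20 of these 23 genes, and of 12 of 13 synthesis genes, and 41.1% of all 27025 genes with a window hold it. GGGCGG, the box bound by Sp1, was found in 19 of 23, and 38.2% of all genes hold it. TCACNCCAC, the only form of the sterol regulatory element searched, was found in none of the 23, and 1.44% of all genes hold it. The direct repeat of nuclear receptor half-sites was also found in none and occurs in 0.0962% of all genes. Matches of different motifs did not overlap in these windows. A match describes letters only, and none was tested against expression. Other forms of these motifs were not searched, so the absence of a match does not mean that a promoter lacks such a site.

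Of 33 other genes of the pathway, 9 were called in at least 1 TCPOBOP comparison, a share not computed over all genes. In the 4 comparisons 1, 4, 7 and 6 of the 33 rose and 1, 1, 0 and 1 fell. Of all genes 2.52%, 3.45%, 4.08% and 3.72% were higher and 1.78%, 3.18%, 1.88% and 2.81% lower. Of those of at least 1 FPKM, 4.16%, 6.25%, 7.24% and 5.35% were higher and 2.83%, 5.04%, 3.43% and 5.04% lower. Nceh1, a cholesteryl ester hydrolase, rose in all 4, by 1.79-fold to 2.18-fold (adjusted p from 0.000208 to 0.00213) in the authors' deposited table. Mttp, which loads lipid onto apolipoprotein B, rose 1.96-fold in females (adjusted p = 0.00212), 1.98-fold under high corn oil (adjusted p = 0.0223) and 1.63-fold under low corn oil (adjusted p = 0.0217).

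Npc1l1, which in intestine takes up sterols and in mouse liver is scarcely expressed, rose from 0.0764 to 0.713 FPKM at 8 weeks under low corn oil (adjusted p = 5.05e-19) and from 0.0890 to 0.594 FPKM under high corn oil (adjusted p = 9.2e-07). It also rose in 2-week females, from 0.0657 to 0.258 FPKM (adjusted p = 0.0397). Cyp39a1, an oxysterol hydroxylase, rose from 0.173 to 1.24 FPKM under low and 7.55-fold under high corn oil in the authors' deposited table (adjusted p = 2.99e-08 and 2.1e-08). Lipa, the lysosomal acid lipase, rose 1.65-fold under low and 1.88-fold under high corn oil (adjusted p = 0.0146 and 0.0197), and Apoa1 rose in both as well (adjusted p = 0.0475 and 0.00114). Lrp1, a receptor for lipoprotein remnants, fell 1.62-fold in 2-week males (adjusted p = 0.0456), 1.94-fold in females (adjusted p = 0.000412) and 1.69-fold at 8 weeks under low corn oil (adjusted p = 0.00628) in the authors' deposited table. In high over low corn oil, the liver X receptor gene Nr1h3 was 1.47-fold higher (adjusted p = 0.0347) and Apoa1 2.20-fold higher (adjusted p = 0.00142). In the same comparison Soat1, an esterifying enzyme, was 1.90-fold lower (adjusted p = 0.0177), Abcg1, an exporter, 1.54-fold lower (adjusted p = 0.0253) and Pltp, the phospholipid transfer protein, 1.58-fold lower (adjusted p = 0.0157). Osbpl2, an oxysterol-binding protein, rose 1.52-fold in females (adjusted p = 0.0223) in the authors' deposited table.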

How the data were processed

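Nuclear, poly(A)-selected RNA of 28 livers in 8 groups was sequenced as stranded libraries, per the labels. Reads were aligned with TopHat2 2.0.13 to mm9 and counted with featureCounts 1.4.6-p5, and edgeR was used, per the submitters' processing notes. Counting covered gene bodies and so, in nuclear RNA, could include unspliced transcripts, per the file headers. The authors deposited 1 FPKM value per group (by a step the sources used here do not name), a signed fold-change score (negative inverse where lower) and a p-value. The deposited p-values were read as adjusted because 56.0% to 64.5% of them equal 1; the header does not say so.

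Signed folds were converted to log2 with Python 3.11.15 and pandas 2.3.3, tested on simulated data. No counts, errors or depth per library were used, so neither a fit nor an interval could be made, and tests rest on the authors' p-values over the whole table. The deposited folds differ from FPKM ratios by a nearly constant factor per comparison, a median of -0.11 to 0.15 on the log2 scale. Replicates are separate mice, per the labels. The 2 FPKM columns of the high over low comparison were not used, since the 8-week comparisons give those groups.

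The members, lists and tests were chosen with earlier results of these data known. Named were all members called in any of the 5 comparisons and 4 regulators (Srebf2, Scap, Insig1, Insig2). Of the rest, the 4 of largest change under TCPOBOP and the 2 of highest and 2 of lowest mean FPKM were named. Motifs were searched on both strands of RefSeq windows. Of the other pathway genes, 1 that was called is counted but not reported here.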

Additional observations from a re-analysis of the deposited data

How the results depend on the processing

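All 25 calls of member genes kept their direction when FPKM ratios with a pseudocount of 0.1 or 1 replaced the deposited folds. At an adjusted p under 0.01, 8 of the 25 were lost, and at under 0.1, 6 values were gained. Of the 25, 24 were of at least 1.5-fold and 7 of at least 2-fold.

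With a fold of at least 2, the higher calls went to 0 from 2 in 2-week females, from 3 (2 of them synthesis genes) at 8 weeks under high corn oil and from 1 under low corn oil, where the lower calls went from 2 to 1. In high over low corn oil they went from 10 to 2 higher (synthesis genes from 9 to 2) and from 3 to 1 lower. At an adjusted p under 0.01, higher calls were 1 under high corn oil (1 of them a synthesis gene), 0 under low corn oil and 6 in high over low. At under 0.1, 1 synthesis gene was higher in females, 1 was lower under high corn oil, which is also 1 member, and 1 was higher under low corn oil, making 2 members.

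With FPKM ratios and pseudocounts of 0.1 and 1 the median log2 fold change of the members went from -0.04 to 0.069 and 0.067 under low corn oil and from 0.47 to 0.32 and 0.29 in high over low, and that of synthesis genes in high over low from 0.69 to 0.54 and 0.51. Such ratios leave out the authors' scaling. The minimum of 0.5 FPKM removed 0 members, and centring on all genes moved no median by 0.1 or more. No paired analysis was possible because the table holds no values per library. For the same reason leaving out a replicate, DESeq2 and a count filter were not run, and 1 TCPOBOP female library that carries another set code could not be left out.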

Other observations

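Hmgcs1, which encodes the enzyme that makes HMG-CoA for cholesterol synthesis, was listed at 0 in all 8 groups of the authors' deposited table, while its neighbours in the pathway lay well above 0 (Acat2 between 8.11 and 12.8 FPKM). Of all 24197 genes, 4917 were listed at 0 in all groups. Whether the 0 of Hmgcs1 reflects its expression cannot be told from these values.

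Among 2-week vehicle mice, 12 of 16 synthesis genes (75%) had a higher FPKM in females than in males. This is near the share over genes of at least 1 FPKM, of which 70.1% were higher in females. The median ratio was 1.31 for synthesis genes and 1.09 for genes of at least 1 FPKM. Mvd, at 13.1 against 6.92 FPKM, and Sqle, at 11.9 against 6.69 FPKM, had the largest ratios. This difference was not tested.

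Among low corn oil vehicle males, synthesis genes did not differ alike between 4 to 8 weeks and 2 weeks. Lss and Mvd had FPKM ratios of 2.24 and 1.92, whereas Idi1, Ebp and Cyp51 had ratios of 0.481, 0.539 and 0.550. The median over the 16 genes was 0.861, against 1.03 over genes of at least 1 FPKM, and the groups also differ in library set. Of the 7 lymphocyte and neutrophil markers, S100a8 rose in all 4 TCPOBOP comparisons and the other 6 were called in none. The summed level lay between 6.60 and 52.8 FPKM, of which S100a8 alone gave between 0.236 and 41.0 FPKM. S100a9, also a neutrophil marker, was 1.08-fold and 1.29-fold lower at 8 weeks under high and low corn oil (adjusted p = 1 for both) in the authors' deposited table, and was called higher in high over low corn oil (adjusted p = 0.0255). Of the 7 stellate cell markers, the fibrillar collagens Col1a1 and Col3a1 rose in all 4, and the summed level lay between 52.1 and 99.0 FPKM. Lrat and Hand2, of the same list, had lower values in all 4. Lrat, which esterifies retinol, fell 1.82-fold under low corn oil (adjusted p = 0.00773) and was not called in the other 3 (adjusted p from 0.122 to 0.839). Hand2 was between 1.29-fold and 1.73-fold lower and was called in none (adjusted p from 0.161 to 0.494). In high over low corn oil, Col1a1 was called lower (adjusted p = 0.0497). Of 9 Kupffer cell and macrophage markers measured, Lyz2 rose in females and at 8 weeks under high corn oil. Of the same list, Marco and Timd4 were 1.50-fold and 1.01-fold lower in females, neither called, and the rest had higher values. Of 5 cholangiocyte markers, Spp1 rose at 8 weeks under low corn oil. There Sox9 and Krt7 were 1.55-fold and 1.19-fold lower, and Krt19 and Epcam 1.54-fold and 1.64-fold higher, none called. Of 6 endothelial markers, Lyve1 rose in females. There Stab2 and Kdr were 1.21-fold and 1.02-fold lower, and Clec4g, Pecam1 and Oit3 had higher values, none called.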
